A study of Mus musculus with 12 samples.

Results

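The cardiac progenitors (CPs) of the early allantoic bud (EB) stage fell into cells scored positive for Tbx5 and cells scored positive for Nkx2-5, and the comparison of these EB Tbx5+ and EB Nkx2-5+ CPs is described here cell by cell. It used 6 of the 12 cells sequenced, 3 EB Tbx5+ and 3 EB Nkx2-5+ CPs, and all 4751 of 14063 listed genes whose mean over these 6 cells reached 10 RPM, a gene's reads scaled to all aligned reads of the cell. The cells came from CD1 mouse embryos that carried no transgene or treatment in the labels, were picked singly from the dissected heart-forming region, and were classed by PCR on their amplified cDNA. Both groups had been chosen by that PCR as positive for Cfc1, a lateral plate mesoderm marker, and negative for Sox17 (endoderm) and Sox2 (neural ectoderm), and each group held 1 of the 2 cardiac factors without the other. The other 6 cells of the study were Nkx2-5+ and Nkx2-5+/Tbx5+ CPs of the early head fold (EHF) stage and enter only at the end.

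Tbx5 is a T-box transcription factor of the first heart field, the source of the left ventricle and much of the atria, and Nkx2-5 is a homeodomain factor of both heart fields. At the EB stage mesoderm has recently left the primitive streak, and its cells are exposed to WNT, NOTCH and BMP signals that guide the choice between cardiac, vascular and extraembryonic fates. Canonical WNT acts through beta-catenin, NOTCH through receptor cleavage and RBPJ, and BMP through receptor serine kinases and SMAD proteins.

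The labels name no embryo or litter for any cell, so each group of 3 cells counted as 1 sample, and no p-value, standard error or test of a difference is given. Values are RPM, listed for cells 1, 2 and 3 of a group in that order. Differences are log2 ratios of the group means with 10 RPM added to each mean, EB Tbx5+ over EB Nkx2-5+, and therefore understate the change of genes near 0. Aligned reads ranged from 22681504 to 36733874 per EB cell, which makes 1 read worth 0.0272 to 0.0441 RPM, and 3 reads, the limit that a count of 0 allows, 0.0817 to 0.132 RPM (counting error only). One cell stood apart: EB Tbx5+ cell 2 had 3249 genes at 1 RPM or more, against 4856 to 5479 in the other 5 EB cells, although its depth was the second highest. For several lists below, counts without this cell are given too.

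The label genes differed in how far the reads bore out the PCR. Nkx2-5 (chromosome 17, 26838664 to 26844988; mm10 for all positions) was at 33.6, 41.9 and 1.48 RPM among the EB Nkx2-5+ CPs and listed at 0 in all 3 EB Tbx5+ CPs. EB Nkx2-5+ cell 3 held 53 Nkx2-5 reads, against 934 and 951 in cells 1 and 2. Tbx5 (chromosome 5, 119796514 to 119885220) was at 0.218, 0.0276 and 0.335 RPM among the EB Tbx5+ CPs and at 0 in all 3 EB Nkx2-5+ CPs. Tbx5 reads were thus listed in EB Tbx5+ CPs alone among the EB cells, but numbered only 8, 1 and 11. The 1 read of cell 2 is within the 3 reads that a count of 0 allows. Tbx5 lay below the minimum of the comparison. Cfc1, which the PCR selection required, was at 0.0272, 60.5 and 108 RPM among the EB Tbx5+ and 0.072, 0.0882 and 45.3 RPM among the EB Nkx2-5+ CPs. Cells 1 of both groups and cell 2 of the EB Nkx2-5+ group thus held only 1 or 2 Cfc1 reads, against the marker they were selected on. Sox17 was listed at 0 in all 6 cells, and Sox2 was not analysed here.

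Other markers of the panel did not divide the groups. Mesp1, an early factor of cardiac mesoderm, was at 0.218, 317 and 90.2 RPM among the EB Tbx5+ and 225, 0.176 and 532 RPM among the EB Nkx2-5+ CPs, so that 1 cell of each group was near 0. The atrial myosin light chain Myl7 was at 12.6, 235 and 130.1 against 82.4, 146 and 536 RPM. The ventricular light chain Myl2 reached no more than 0.223 RPM and the second heart field factor Isl1 no more than 1.37 RPM in any EB cell. The cardiac actin Actc1 passed 5 RPM in EB Nkx2-5+ cell 3 alone, at 39.4 RPM. Gapdh, a glycolytic enzyme used as a loading reference, spanned a narrow range, 172, 184 and 229.9 RPM across EB Tbx5+ and 223, 187 and 306 RPM across EB Nkx2-5+ CPs.

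Each marker list of other tissues summed to under 1 RPM in at least 1 cell, except the germ cell and pluripotency list. Of 14 endothelial and blood markers in the table, 8 were under 1 RPM in all 6 cells. The summed level of that list was 0.166 to 411 RPM across EB Tbx5+ and 64.4 to 777 RPM across EB Nkx2-5+ CPs, and rested in part on Kdr, the VEGF receptor of early vascular mesoderm (339, 0.0553 and 2.74 against 0.036, 395 and 0 RPM). The 9 paraxial mesoderm markers summed to 0.0272 to 15.01 RPM across EB Tbx5+ and 0.265 to 498 RPM across EB Nkx2-5+ CPs. EB Nkx2-5+ cell 3 gave that highest sum, with 5 of the 9 markers at 10 RPM or more, among them the forkhead gene Foxc1 (161 RPM) and the NOTCH ligand Dll3 (287 RPM). The 12 endoderm markers summed to at most 165 RPM and the 12 ectoderm markers to at most 96.3 RPM in any cell. Node and notochord markers summed to over 1 RPM in 1 cell of each group, where only T (Brachyury) was above 10 RPM, at 124 and 47.8 RPM. The trophoblast list was carried by Hand1, which heart and extraembryonic mesoderm also express, and the germ cell and pluripotency list summed to 217 to 678 RPM across the 6 cells. What part such cells or transcripts have in the differences below was not tested.

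A higher mean in EB Tbx5+ CPs was found for 45.5% of the 4751 genes. Among all of them, 432 had a mean at least 4-fold higher in EB Tbx5+ CPs (9.09%) and 637 a mean at least 4-fold lower (13.4%). Most of these genes varied widely within a group: in 360 of the 432 (83.3%) and 463 of the 637 (72.7%) the cells of the 2 groups overlapped, and 1 cell held at least 90% of its group's summed RPM in 246 and 314 of them. All 3 EB Tbx5+ CPs lay above all 3 EB Nkx2-5+ CPs for 149 genes (3.14%) and below them for 271 (5.7%). Both conditions together held for 72 genes higher and 174 genes lower in EB Tbx5+ CPs. Without EB Tbx5+ cell 2, 518 genes were at least 4-fold higher (10.7%) and 616 lower (12.7%), while 477 lay above (9.85%) and 371 below (7.66%) in every remaining cell. Without EB Tbx5+ cell 1, 966 genes were at least 4-fold lower, and leaving out any 1 of the 6 cells raised the count above in every cell to between 270 and 477 and the count below to between 371 and 659, since fewer cells overlap less. The excess of genes below over genes above in every cell thus reversed when the cell with the fewest genes was left out. With 3 cells a group some genes lie apart by order alone, and how many was not estimated. A lack of overlap therefore describes these cells and is not evidence of a difference between the groups.

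**Figure D1:**
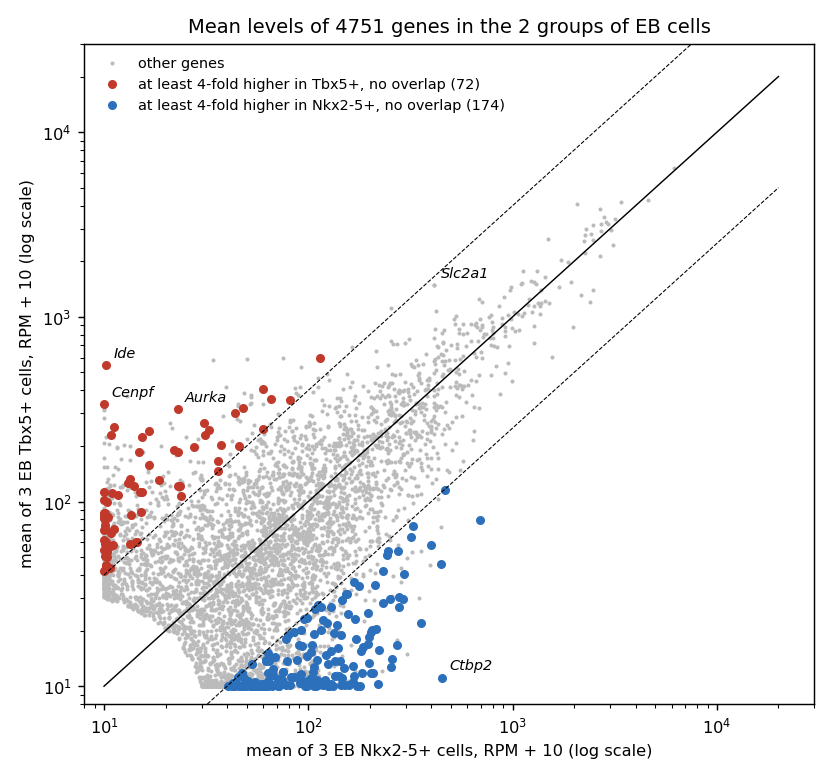
Mean RPM + 10 of each of 4751 genes in 3 EB Nkx2-5+ CPs (x axis) and 3 EB Tbx5+ CPs (y axis), both on log scales. The solid line marks equal means and the dashed lines 4-fold; 72 genes (red) and 174 genes (blue) lie past 4-fold with no overlap between the cells, most of them near the floor of 10 in the other group.

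Cells of a group were about as alike as cells of different groups. Spearman correlations across the 4751 genes, which share their amplification and are not independent, averaged 0.37 over the 3 pairs of EB Tbx5+ CPs (0.357 to 0.378), 0.36 over the 3 pairs of EB Nkx2-5+ CPs (0.346 to 0.3796) and 0.367 over the 9 pairs between the groups (0.331 to 0.407). Values of each cell are therefore given for the genes named below.

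The gene with the widest gap towards EB Tbx5+ CPs was Ide, the insulin-degrading protease (chromosome 19, 37268743 to 37334544). Ide was at 183, 1069.9 and 355 RPM across EB Tbx5+ and 0.792, 0 and 0 RPM across EB Nkx2-5+ CPs, a difference of 5.73. The lowest EB Tbx5+ cell stood 4.16 log2 units above the highest EB Nkx2-5+ cell, again with 10 RPM added. Ide was 1 of 6 genes (0.126%) at 10 RPM or more in every EB Tbx5+ CP and under 1 RPM in every EB Nkx2-5+ CP. The others were Cenpf (a kinetochore protein), Cstf1 (mRNA 3' end cleavage), Hspb11 (an intraflagellar transport subunit), Rnd2 (a small GTPase) and Syngr2 (a vesicle membrane protein). Rnd2 was at 30.5, 193 and 52.9 RPM and Syngr2 at 147, 51.5 and 111 RPM among the EB Tbx5+ CPs, and both were below 0.05 RPM among the EB Nkx2-5+ CPs. Hspb11 was at 27.2, 125 and 31.5 and Cstf1 at 49.95, 198 and 19.97 RPM, against no more than 0.919 RPM in any EB Nkx2-5+ CP.

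Genes of the division cycle stood among these leaders. Ccnd2 encodes cyclin D2, which drives passage through G1 (chromosome 6, 127125162 to 127152188), and was at 216, 279 and 142 RPM across EB Tbx5+ and 0.972, 14.8 and 0 RPM across EB Nkx2-5+ CPs, a difference of 3.86. The mitotic kinase gene Aurka was at 204, 582 and 129.9 against 0, 13.8 and 25.3 RPM (difference 3.77). Cenpf was at 248, 719 and 15.1 against 0.036, 0 and 0.0836 RPM (difference 5.07). All 3 were above the EB Nkx2-5+ CPs in each EB Tbx5+ cell, though Cenpf in cell 3 was far below its level in cells 1 and 2. Of 30 mitosis genes compared, 17 had a higher mean in EB Tbx5+ CPs, 5 were at least 4-fold higher (9.09% of all genes) and 2 at least 4-fold lower (13.4% of all genes), with a median difference of 0.68 against -0.17 over all genes. Besides Aurka and Cenpf, only Cdca8 of these 30 lay above in every cell (3.14% of all genes), and none lay below. When EB Tbx5+ cell 2 was left out, 7 of 29 mitosis genes lay above in every cell (9.85% of all genes), 7 were at least 4-fold higher (10.7%), and the median difference was 0.53. Ube2c, the ubiquitin-conjugating enzyme of the anaphase-promoting complex, was 4-fold higher but overlapped (334, 50.7 and 1196 against 202, 23.4 and 19.2 RPM), as did the mitotic phosphatase gene Cdc25c (97.4, 125 and 0.0609 against 7.1, 0.265 and 5.8 RPM). Cdca5, which encodes the cohesion factor sororin, was lower in EB Tbx5+ CPs through 1 cell, EB Nkx2-5+ cell 2, at 437 RPM.

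Genes of DNA replication mostly had the lower mean in EB Tbx5+ CPs, and passed 4-fold no more often than all genes. Of 40 S phase genes, 14 had a higher mean in EB Tbx5+ CPs (45.5% of all genes) and 26 a lower mean. Their median difference was -0.37. Of the 40, 1 was at least 4-fold higher (9.09% of all genes), 5 were at least 4-fold lower (13.4%), and 4 lay below in every cell (5.7%). Those 4 included both larger subunits of the CAF-1 histone chaperone, which loads histones onto new DNA. Chaf1a was at 0.191, 34 and 1.64 RPM across EB Tbx5+ and 70.8, 160.0 and 111 RPM across EB Nkx2-5+ CPs, and Chaf1b at 2.5, 0.0276 and 25.5 against 63.6, 58.9 and 248 RPM. The uracil-DNA glycosylase gene Ung was at 0.109, 0 and 1.46 against 31.5, 81.4 and 81.6 RPM (difference -2.83). The fourth was Rrm2, the ribonucleotide reductase subunit. Without EB Tbx5+ cell 2, 4 of 40 S phase genes lay above in every cell (9.85% of all genes) and 4 below (7.66%). The S phase median was then -0.25 against -0.09 over all genes.

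The ubiquitin and proteasome genes among the leaders pointed both ways. Psma1, a subunit of the 20S core, was at 83, 413 and 32.3 RPM across EB Tbx5+ and 5.22, 5.95 and 3.54 RPM across EB Nkx2-5+ CPs, and Psmd12, of the 19S lid, at 303, 414 and 12.4 against 0.468, 0.75 and 2.26 RPM. The proteasome inhibitor gene Psmf1 had the opposite pattern, 0, 0.0829 and 0.548 against 62.2, 326 and 33.4 RPM. Ube2e3, an E2 ubiquitin-conjugating enzyme, was also lower in EB Tbx5+ CPs (29.8, 21.9 and 9.62 against 280.0, 329 and 194 RPM). Over the 37 proteasome genes the median difference was -0.14, close to that of all genes, with 3 above (3.14% of all genes) and 1 below (5.7%) in every cell. With EB Tbx5+ cell 2 left out, 5 lay above (9.85% of all genes) and 1 below (7.66%).

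Further genes with a wide gap towards EB Tbx5+ CPs had roles in trafficking and organelles. Cnih1, a cargo receptor for export from the endoplasmic reticulum, was at 248, 302 and 383 RPM across EB Tbx5+ and 12.4, 43.5 and 58.1 RPM across EB Nkx2-5+ CPs. Atp6v0c, the proteolipid of the vacuolar proton pump, was at 115, 84.7 and 113 against 14.3, 20.4 and 29.3 RPM, and Gga1, a clathrin adaptor of the Golgi, at 25, 153 and 46.3 against 4.54, 5.11 and 1.14 RPM. These levels did not overlap between the groups, and those of Atp6v0c varied little within them. Mrps9, of the small mitochondrial ribosomal subunit, was at 74.1, 184 and 35.6 against 0.9004, 0.926 and 3.4 RPM. The poorly characterised D8Ertd82e, BC003965 and A430005L14Rik also separated the cells, with differences of 4.41, 3.27 and 3.87.

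**Figure D2:**
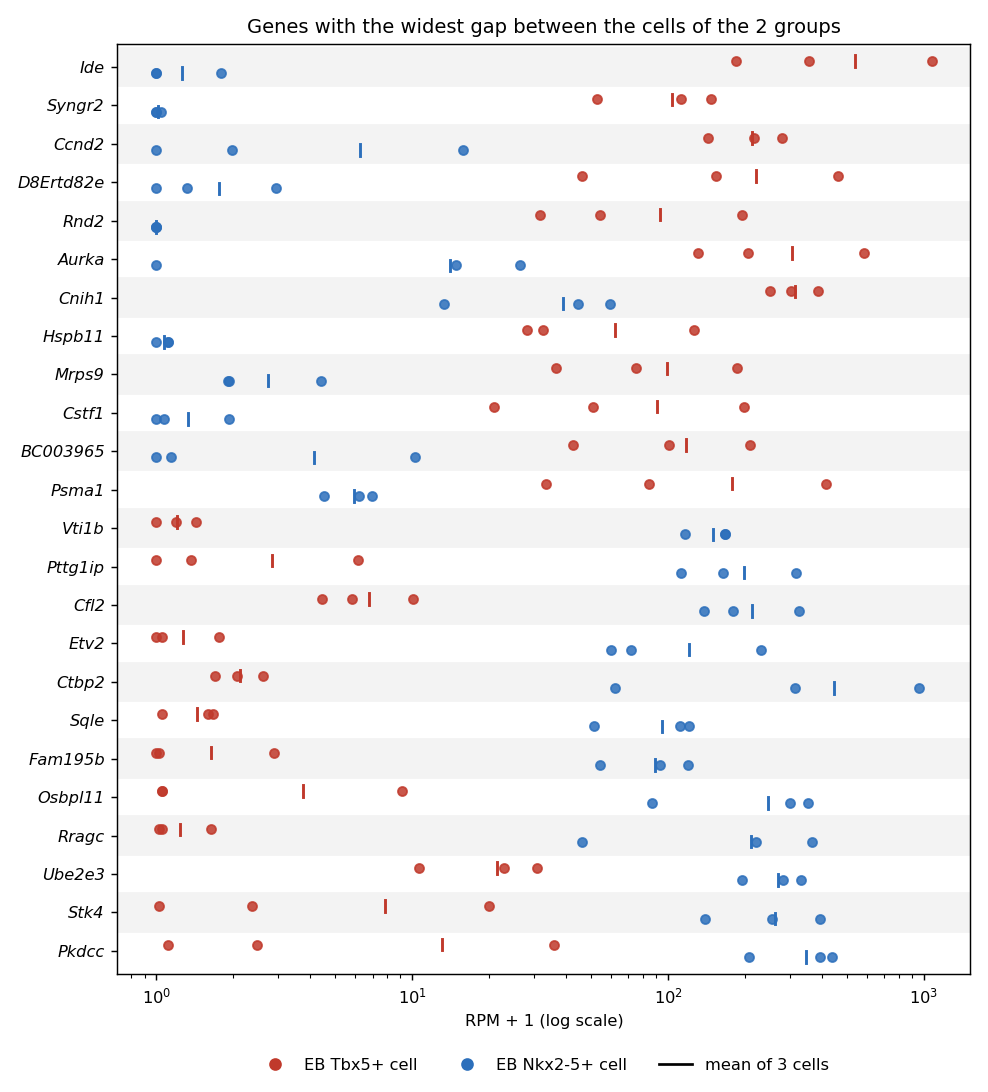
RPM + 1 (log scale) in each EB Tbx5+ CP (red) and EB Nkx2-5+ CP (blue), with short bars at the group means, for the 12 genes with the widest gap in each direction. Ide has the widest gap towards Tbx5+ cells (4.16 log2 units) and Vti1b the widest towards Nkx2-5+ cells (3.58), and no gene shown has overlapping groups.

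The widest gap towards EB Nkx2-5+ CPs belonged to Vti1b, a SNARE protein of endosomal fusion (chromosome 12, 79156017 to 79172685). Vti1b was at 0.191, 0 and 0.426 RPM across EB Tbx5+ and 115, 166 and 166 RPM across EB Nkx2-5+ CPs, a difference of -3.96, and varied little among the EB Nkx2-5+ CPs. It was 1 of 12 genes (0.253%) at 10 RPM or more in every EB Nkx2-5+ CP and under 1 RPM in every EB Tbx5+ CP. These 12 also included Etv2, Psmf1, Rragc (a GTPase of amino acid sensing at the lysosome), Sqle (squalene epoxidase), Prkag1 (a subunit of AMP-activated kinase), Ino80e (a chromatin remodelling subunit) and Itgb1bp1 (an integrin-binding protein). The remaining 4 were Auh, Fam207a, Hint2 and Zbtb24. Rragc was at 0.0544, 0.0276 and 0.639 against 365, 219 and 45.2 RPM, and Sqle at 0.599, 0.0553 and 0.67 against 50.4, 119 and 111 RPM.

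Etv2, an ETS factor required for endothelial and blood progenitors (chromosome 7, 30633616 to 30636509), was the regulator with the clearest separation towards EB Nkx2-5+ CPs by this rule. It was at 0, 0.0553 and 0.761 RPM across EB Tbx5+ and 59, 229 and 70.7 RPM across EB Nkx2-5+ CPs, a difference of -3.66. Kdr did not follow it, being near 0 in EB Nkx2-5+ cells 1 and 3. Of the 4 endothelial and blood markers above the minimum, Etv2 alone separated the cells and was past 4-fold. Of all genes 5.7% lay below in every cell and 13.4% were at least 4-fold lower. Gata2, a factor of blood progenitors, was at 105 RPM in EB Nkx2-5+ cell 2 and at no more than 18.8 RPM in the other EB cells.

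Actin, kinase and lipid genes were further leaders in this direction. The actin-severing gene Cfl2 was at 9.07, 3.46 and 4.84 RPM across EB Tbx5+ and 178, 323 and 137 RPM across EB Nkx2-5+ CPs. Stk4, the MST1 kinase of the Hippo pathway, was at 19, 0.0276 and 1.37 against 254, 393 and 138 RPM. Pkdcc, a secreted tyrosine kinase of skeletal development, was at 0.109, 1.47 and 34.8 against 207, 393 and 436 RPM. None of these 3 genes overlapped between the groups. Osbpl11, an oxysterol-binding protein, was at 0.0544, 0.0553 and 8.13 against 297, 85.2 and 349.6 RPM and Pttg1ip, a partner of securin, at 5.12, 0 and 0.365 against 162, 315 and 111 RPM. B2m, the light chain of class I histocompatibility molecules, was at 0.708, 0 and 4.99 against 120.1, 103 and 62.4 RPM. Fam195b and Gipc1, a PDZ adaptor of endocytosis, differed by -3.21 and -2.97, and likewise did not overlap.

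Large mean differences without a wide gap were often the work of 1 or 2 cells. Stat5b, a cytokine-activated factor, differed by -4.11 with no overlap, but was at 6.99, 0.573 and 484 RPM among the EB Nkx2-5+ CPs, so that cell 3 made the mean. Dcbld1 (299, 204 and 1.42 RPM) and the ubiquitin ligase gene Ube3c (293, 273 and 12.7 RPM) were carried by EB Nkx2-5+ cells 1 and 2 and differed by -4.16 and -4.10. Foxc1, the groucho corepressor gene Tle1 and the WNT receptor gene Fzd1 lay below in every EB Tbx5+ CP only because readings under 1 RPM still had an order. In the 3 EB Nkx2-5+ CPs Foxc1 was at 0.288, 0.265 and 161 RPM. Tle1 was there at 147, 0.0882 and 0.0836 RPM and Fzd1 at 128, 5.2 and 0.529 RPM, so that 1 cell made each mean.

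Cardiac transcription factors did not divide along the label. Of 21 listed, 9 were above the minimum, 5 with a higher and 4 with a lower mean in EB Tbx5+ CPs. The median difference was 0.90, and -0.24 without EB Tbx5+ cell 2 or -0.46 without cell 1. Hand1, a bHLH factor of the heart and of extraembryonic mesoderm (chromosome 11, 57828713 to 57832147), was at 1643, 1102 and 1684 RPM across EB Tbx5+ and 1158, 44.8 and 0.111 RPM across EB Nkx2-5+ CPs, a difference of 1.86. It was high in all 3 EB Tbx5+ CPs, and the groups overlapped because EB Nkx2-5+ cell 1 reached the same level. Cited2, a CBP/p300-binding coactivator needed for heart development (chromosome 10, 17723228 to 17725674), was at 235, 154 and 218 against 0.036, 148 and 1.003 RPM, a difference of 1.83. Its groups did not overlap, but EB Nkx2-5+ cell 2 came close to the lowest EB Tbx5+ cell. Gata4 was at 8.22, 0 and 11.5 against 14.6, 6.57 and 219 RPM, Mef2a at 202, 21.7 and 0.335 against 0, 0.0882 and 0.474 RPM, and Srf at 0.49, 0.94 and 11.6 against 2.38, 71.1 and 74.2 RPM. Each of these 3 muscle and heart regulators was past 4-fold and overlapped.

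Among allantois and extraembryonic mesoderm genes, 10 of 21 in the table were above the minimum, 6 with a higher mean in EB Tbx5+ CPs and a median difference of 1.04. The ligand gene Bmp4 was at 1105, 22.5 and 587 RPM across EB Tbx5+ and 0, 73 and 0 RPM across EB Nkx2-5+ CPs, a difference of 4.08. It was listed at 0 in 2 EB Nkx2-5+ CPs, and EB Tbx5+ cell 2 lay below EB Nkx2-5+ cell 2. Without EB Tbx5+ cell 2, 4 of 11 genes lay above in every cell (9.85% of all genes) and the median difference was 1.78; without EB Tbx5+ cell 1 it was -0.33. Twist1, a bHLH factor of mesenchyme, ran the other way, at 0, 1.82 and 57.4 against 103, 474 and 268 RPM with no overlap. Spin2c differed by 4.96 through EB Tbx5+ cell 1 alone, at 903 RPM.

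Snai1, the repressor that mesoderm cells switch on as they leave the epithelium, was at 0.0817, 0.0276 and 4.05 RPM across EB Tbx5+ and 174, 30.1 and 270.3 RPM across EB Nkx2-5+ CPs, a difference of -3.88 with no overlap. It was the only one of 6 nascent mesoderm genes above the minimum that separated the cells (5.7% of all genes lay below in every cell). T and Mesp1 were each near 0 in at least 1 cell of both groups, the homeobox gene Evx1 was at 54.5, 0.0276 and 0 against 0, 239 and 113 RPM, and the SMAD partner gene Foxh1 at 210.3, 2.71 and 34.3 against 42.9, 1.28 and 82.9 RPM. The list's median difference was -0.52, and -3.64 without EB Tbx5+ cell 1.

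Of 21 canonical WNT genes above the minimum, 15 had a lower mean in EB Tbx5+ CPs. The other 6 had a higher mean (45.5% of all genes), and the median difference was -0.98. Of these 21, 5 were at least 4-fold lower (13.4% of all genes) and 1 higher (9.09%). The 1 higher gene was Axin2, through EB Tbx5+ cell 3 (0.354, 0.249 and 169 against 15.1, 4.81 and 0 RPM, difference 2.00). Tcf7 also had the higher mean in EB Tbx5+ CPs (108, 1.63 and 10.9 against 4.9, 10.9 and 0 RPM). Both genes overlapped. In every EB Tbx5+ CP 4 of the 21 lay below (5.7% of all genes) and none above (3.14%). Those 4 were Ctbp2, Fzd2, Tle1 and Fzd1. The order of Tle1 and Fzd1 rested on readings under 1 RPM, as given above, and both also count among the 5 genes at least 4-fold lower. The median stayed below 0 when any 1 of the 6 cells was left out (-1.48 to -0.65), and was -0.34 with medians over cells, -0.36 with no minimum on the level and -0.42 with 100 RPM added. Without EB Tbx5+ cell 2, 4 of 23 were at least 4-fold lower (12.7% of all genes) and 2 higher (10.7%). In every remaining cell 5 lay below (7.66% of all genes) and 1 above (9.85%). The signal transducer gene Ctnnb1 (beta-catenin) was at 1239, 118 and 441 RPM across EB Tbx5+ and 1161, 2888 and 587 RPM across EB Nkx2-5+ CPs, a difference of -1.35 with overlap. The transcription factor Lef1 was at 6.59, 85.7 and 86.4 against 332, 0.265 and 204 RPM and Tcf3 at 183, 254 and 337 against 190.2, 506 and 521 RPM. Both had the higher mean in EB Nkx2-5+ CPs, at differences of -1.44 and -0.63, and both overlapped. The symbol Tcf3 names the bHLH factor E2A in current nomenclature, and the WNT-responsive factor once given that name is Tcf7l1.

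The widest separation of the WNT list was that of Ctbp2, a corepressor that also serves many other factors (chromosome 7, 132986998 to 133124009). Ctbp2 was at 1.06, 0.691 and 1.61 RPM across EB Tbx5+ and 313, 955 and 60.9 RPM across EB Nkx2-5+ CPs, a difference of -5.35. The receptor gene Fzd2 was at 6.32, 8.49 and 33.4 against 91.6, 159 and 41.7 RPM, and Pygo2, a coactivator of beta-catenin, at 0.0272, 0.0276 and 6.27 against 109, 143 and 5.91 RPM. Fzd2 did not overlap between the groups, whereas Pygo2 did by less than 1 RPM. Of the secreted WNT antagonists, Sfrp1 was at 0, 0 and 12 against 532, 115 and 94.5 RPM, a difference of -4.20 with no overlap. Sfrp2 was above 1 RPM only in EB Nkx2-5+ cell 1 (137 RPM) and Dkk1 only in EB Nkx2-5+ cell 2 (117 RPM). Of 6 antagonists and noncanonical WNT genes above the minimum, 3 were at least 4-fold lower in EB Tbx5+ CPs (13.4% of all genes) and 1 higher (9.09%). In 5 of the 6, 1 cell held more RPM than all other EB cells together. Their median difference was -1.78, and -0.81 over 7 such genes without EB Tbx5+ cell 2.

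In the NOTCH pathway the receptor and a target separated the cells. Notch1 (chromosome 2, 26457902 to 26503822) was at 0.0817, 0.0553 and 14.4 RPM across EB Tbx5+ and 81.4, 131 and 124 RPM across EB Nkx2-5+ CPs, a difference of -3.04. Hes1, a bHLH repressor and NOTCH target, was at 5.23, 1.08 and 3.53 against 19.5, 109 and 438 RPM, a difference of -3.90. The EB Nkx2-5+ CPs were alike in Notch1 but spread widely in Hes1, and the order of the cells differed between the 2 genes. Rbpj, the DNA-binding partner of the cleaved receptor, was at 65.2, 156 and 142 against 457, 44 and 186 RPM and overlapped. Dll3 differed by -2.83 through EB Nkx2-5+ cell 3, and Dtx2, a Deltex ubiquitin ligase, had the higher mean in EB Tbx5+ CPs (64.4, 203 and 0 against 4.57, 20.5 and 0.139 RPM). Of 9 NOTCH genes above the minimum, 7 had a lower mean in EB Tbx5+ CPs and 2 a higher (45.5% of all genes). At least 4-fold lower were 3 (13.4% of all genes), and the median difference was -1.51. Dtx2 was the 1 gene at least 4-fold higher (9.09% of all genes), and 2 lay below in every cell (5.7%). Without EB Tbx5+ cell 2, 3 of 11 were at least 4-fold lower (12.7% of all genes) and 0 higher (10.7%), and 3 lay below in every cell (7.66%). That median moved to -0.18 with medians over cells and to -0.61 without EB Nkx2-5+ cell 1.

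No BMP or TGF-beta gene above the minimum separated all 6 cells (of all genes 3.14% lay above and 5.7% below in every cell). Of 15 above the minimum 6 had a higher and 9 a lower mean in EB Tbx5+ CPs, 2 were at least 4-fold higher (9.09% of all genes) and 3 lower (13.4%), and the median difference was -1.15, or 0.92 without EB Nkx2-5+ cell 1. Without EB Tbx5+ cell 2, 3 of 16 lay above in every cell (9.85% of all genes), among them Bmp4, and 4 were at least 4-fold higher (10.7%). Besides Bmp4, Msx2, a homeobox target of BMP, was higher through EB Tbx5+ cell 1 (103 RPM). The 3 genes at least 4-fold lower in EB Tbx5+ CPs were each high in 1 EB Nkx2-5+ CP only: the antagonist Nog in cell 1 (178 RPM), the type I receptor Acvr1 in cell 2 (251 RPM) and the target Id2 in cell 1 (131 RPM). Among 14 FGF and RAS genes above the minimum, the kinase gene Braf alone separated the cells, higher in EB Tbx5+ CPs (3.14% of all genes). The median difference was -0.39.

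**Figure D3:**
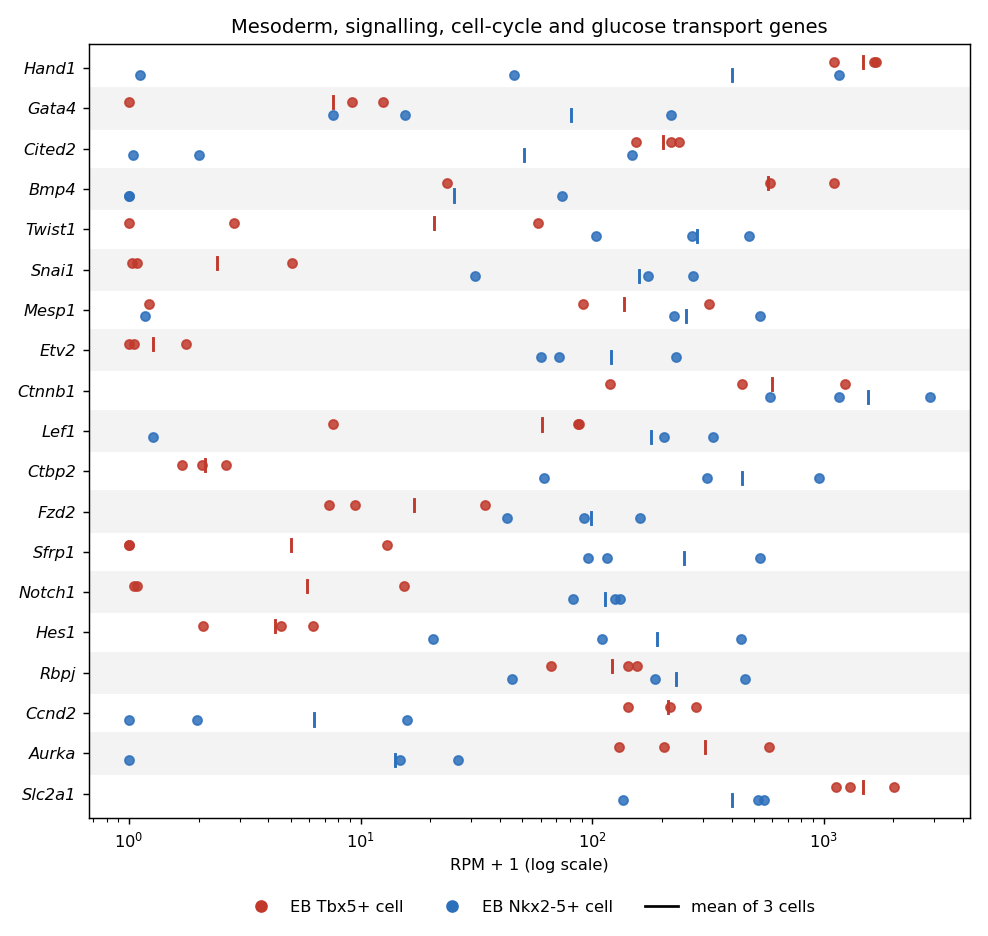
RPM + 1 (log scale) in each EB Tbx5+ CP (red) and EB Nkx2-5+ CP (blue), with short bars at the group means, for genes of mesoderm, WNT and NOTCH signalling, the cell cycle and glucose uptake. Notch1, Hes1, Sfrp1, Ctbp2, Etv2, Snai1 and Twist1 are higher in every Nkx2-5+ cell, Ccnd2, Aurka, Slc2a1 and Cited2 in every Tbx5+ cell, and Hand1, Ctnnb1, Lef1 and Rbpj overlap.

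Genes for a glucose transporter, a lactate exporter and a phosphofructokinase were higher in every EB Tbx5+ CP and were detected in all 6 cells. Slc2a1, the GLUT1 transporter, was at 1126, 2009.6 and 1302 RPM across EB Tbx5+ and 551, 518 and 135 RPM across EB Nkx2-5+ CPs, a difference of 1.86. The lactate exporter gene Slc16a3 was at 259, 73.6 and 259 against 36.5, 65.8 and 49.3 RPM, and Pfkl, the liver form of phosphofructokinase, at 125, 406 and 161 against 90.4, 95.1 and 33 RPM. These were 3 of 15 glycolysis genes above the minimum (3.14% of all genes lay above in every cell), none lay below, and none of the 15 passed 4-fold. The other 12 overlapped, Gapdh among them. Over the list 8 had a higher and 7 a lower mean, with a median difference of 0.16.

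Abundant housekeeping lists had medians near 0, somewhat above that of all genes (-0.17). Of 77 cytosolic ribosomal protein genes none passed 4-fold, 4 lay above in every EB Tbx5+ CP (3.14% of all genes) and none below, and the median difference was 0.16. It was 0.28 for 75 oxidative phosphorylation genes, 0.15 for 50 spliceosome genes, 0.05 for 45 translation factors and -0.01 for 64 mitochondrial ribosome genes. The 32 cytosolic chaperones had a median of 0.28, with 2 above in every EB Tbx5+ CP (3.14% of all genes) and none below (5.7%). These 2 were Stip1 (484, 1136 and 475 against 207, 343 and 238 RPM) and Ptges3 (63.6, 52.4 and 52.2 against 7.46, 17.1 and 5.07 RPM), both partners of HSP90. Of 33 chaperone genes compared without EB Tbx5+ cell 2, 7 lay above in every cell (9.85% of all genes). The chromobox gene Cbx1, for the heterochromatin protein HP1 beta, was at 376, 522 and 149.6 against 101, 32.4 and 33.5 RPM and did not overlap. Tinf2, a shelterin subunit at telomeres, ran the other way, at 2.01, 0.0553 and 14.2 against 119, 54.8 and 340.1 RPM.

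**Figure D4:**
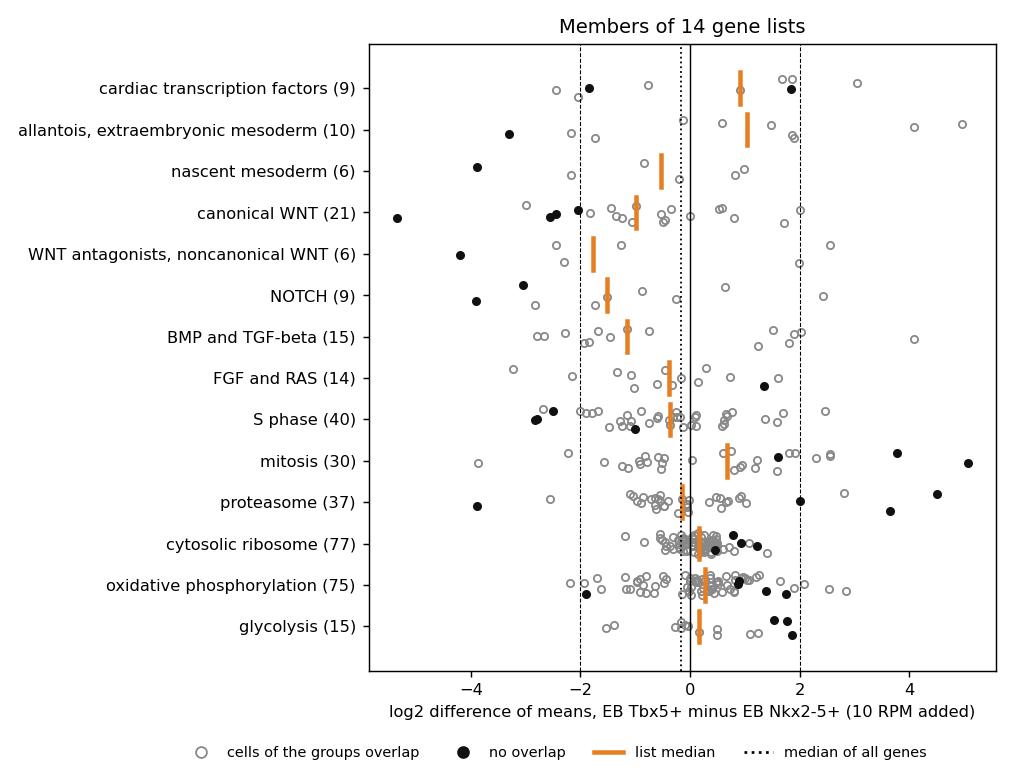
Log2 difference of group means, EB Tbx5+ minus EB Nkx2-5+ with 10 RPM added, of each gene above the minimum in 14 lists (number of genes in brackets); filled points have no overlap between the cells, orange bars are list medians, the dotted line is the median of all 4751 genes (-0.17) and the dashed lines mark 4-fold. The WNT antagonist (-1.78), NOTCH (-1.51), BMP and TGF-beta (-1.15) and canonical WNT (-0.98) medians lie to the left and the abundant lists near 0. The WNT antagonist median covers 6 genes and was -0.81 without EB Tbx5+ cell 2.

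The promoters of the leading genes were searched for the letters AGGTGT, the core of a T-box site, and TNAAGTG, an NKX2-5 element, on both strands of RefSeq promoters (GRCm38.p6, from 250 bases before to 50 after a start). Of 17 leading genes higher in EB Tbx5+ CPs 14 had a RefSeq promoter, and of 18 lower 12 had one. AGGTGT stood in 1 of 16 promoters of the first set and in 0 of 14 of the second, against 13.7% of all 32851 promoters. TNAAGTG stood in 2 of 16 and 0 of 14, against 11.5% of all. The 3 matches, shown with up to 20 bases on either side and the matched letters in capitals, were those of Atp6v0c (chr17:24168838-24168883, minus strand), Psma1 (chr7:114276153-114276199, minus strand, with the element on the opposite strand) and Syngr2 (chr11:117809417-117809453, plus strand), printed 5′ to 3′ on the gene's strand. They are letters in a window, not shown to be bound.
Atp6v0c AGGTGT: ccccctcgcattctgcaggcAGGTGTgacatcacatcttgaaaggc
Psma1 TNAAGTG: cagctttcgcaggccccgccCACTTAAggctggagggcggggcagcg
Syngr2 TNAAGTG: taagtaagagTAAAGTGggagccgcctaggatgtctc

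The EHF cells share no cell with the EB comparison. They offered the only other contrast between a Tbx5-positive and a Tbx5-negative group, although there both groups were Nkx2-5+. Of the 72 genes higher in EB Tbx5+ CPs by at least 4-fold with no overlap, 49 had an EHF mean of at least 10 RPM, and 29 of these (59.2%) were also higher in EHF Nkx2-5+/Tbx5+ than in EHF Nkx2-5+ CPs. Of 3489 genes compared at EB and at that level at EHF, 58.3% were higher there. Of the 174 lower genes 132 could be followed, and 61 (46.2%) were lower at EHF too, beside 41.7% of the 3489. EHF Nkx2-5+/Tbx5+ cell 3 and EHF Nkx2-5+ cell 2 stood apart with 2682 and 3073 genes at 1 RPM or more, against 4386 to 5650 in the other EHF cells. Without these 2 cells 26 of 52 higher genes (50%, beside 61.3% of all genes) and 57 of 130 lower genes (43.8%, beside 38.7%) kept their direction. For genes chosen without EB Tbx5+ cell 2 the numbers were 70 of 142 (49.3%) and 61 of 143 (42.7%). Ide, with a difference of 3.54 at EHF, was higher in the Tbx5-positive group at both stages, at 21.6, 288 and 10.6 RPM across EHF Nkx2-5+/Tbx5+ and 0, 0 and 0.0802 RPM across EHF Nkx2-5+ CPs, and differed by 4.04 without the same 2 cells. Stk4 ran against its EB difference, at 95.9, 133 and 0.143 against 0.537, 0.0846 and 0 RPM (difference 3.08, or 3.60 without the 2 cells), though the EHF groups overlapped. 4 further genes followed to EHF had differences that rested on the 2 cells. Aurka differed by 3.07 with them and 0.32 without, Pkdcc by -3.62 and -0.56, Cenpf by -4.19 and -0.46, and Hes1 by -5.22 and 0.79, so that Hes1 changed sign. Hes1 was at 1879 RPM and Cenpf at 3906 RPM in EHF Nkx2-5+ cell 2, and Aurka at 2216 RPM in EHF Nkx2-5+/Tbx5+ cell 3.

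**Figure D5:**
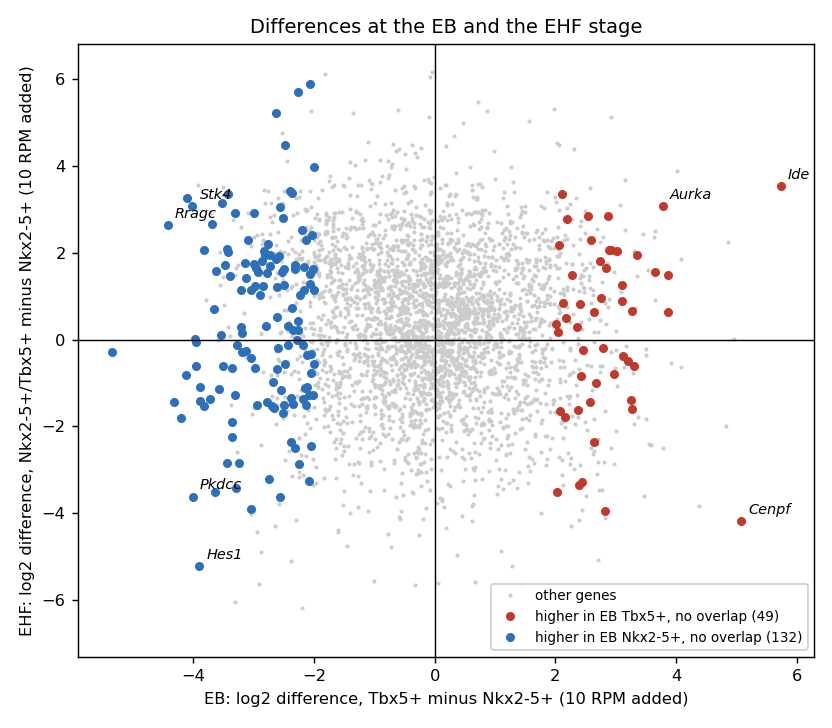
Log2 difference of group means with 10 RPM added at EB (x axis, Tbx5+ minus Nkx2-5+) and at EHF (y axis, Nkx2-5+/Tbx5+ minus Nkx2-5+) for 3489 genes at 10 RPM or more at both stages. The 49 genes higher in EB Tbx5+ CPs (red) and the 132 lower (blue) spread on both sides of 0 at EHF, 29 and 61 of them on the same side as at EB.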

How the data were processed

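Single CPs were picked from dissected CD1 embryos, and their oligo(dT)-primed, poly(A)-tailed cDNA was amplified by PCR, tagmented and sequenced without molecular identifiers. The deposited values are a normalised signal in RPM, for which the authors divided gene reads by a cell's aligned total; gene length was not corrected for. CASAVA 1.7.0, Partek and mm10 are named in the submitters' processing notes; the aligner and the counting of overlapping or antisense genes are not given in the sources used here. PCR copies are not independent molecules, and a gene at 0 may have been lost in amplification.

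The sheet holds 64 copies of the same matrix, of which the first was used, without 22 names that a spreadsheet had turned into dates. The deposited totals of aligned reads turn 95.4% to 97.7% of the EB values between 0.5 and 20 reads into whole reads within 0.02. Of the values above 0, 0.947% are worth under 0.5 of a read, so a value above 0 is not taken as detection. Sequences and images were not used.

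The group means of 3 cells were compared as log2 ratios with 10 RPM added for genes whose mean over the 6 EB cells reached 10 RPM. Where the study's analysis of variance took cells as replicates, no test was made here, because no label ties a cell to an embryo. The gap of a gene is the log2 ratio of the lowest cell of the higher group to the highest cell of the lower group, again with 10 RPM added. Named were the label and PCR panel genes with Hand1, Cited2, Ctnnb1, Lef1, Tcf3, Notch1 and Rbpj, up to 15 genes per direction by gap, up to 8 per direction by mean difference among genes without overlap, and up to 5 per list by size of difference; those of them that bear on the lists described are given. Gata2, Cdca8, Rrm2, Braf and the remaining genes on in 1 group and off in the other were named outside this rule or after their values were seen. The comparison, its members and the 40 gene lists were chosen with earlier results of these data known.

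Alternatives were 1 or 100 RPM added, means of log2 values, medians over cells, rescaling that ignored the 100 highest genes, a minimum of 50 RPM or none, and leaving out each EB cell. Leaving out the 2 EHF cells with the fewest genes, and choosing the genes followed to EHF without EB Tbx5+ cell 2, were added after the values were seen. The functions were tested on simulated data. Positions and promoters are from RefSeq (GRCm38.p6), in which 13225 of 14063 symbols were found. Scripts ran in Python 3.11.15 with pandas 2.3.3, numpy 2.4.6, matplotlib 3.10.9 and scipy 1.17.1.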

Additional observations from a re-analysis of the deposited data

Results flagged for a closer look

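For 3 of the genes named, every cell of the Tbx5-positive group lay on one side at EB and on the opposite side at EHF. Of the 49 higher genes followed to EHF above, 3 separated the EHF cells in the same direction and 1 in the opposite. Of the 132 lower genes, 1 did so in the same direction and 6 in the opposite. How many of all 3489 genes at that level at both stages separated the EHF cells was not counted. These counts therefore do not show a reversal between the stages, and the difference between the stages was not tested. Slc2a1 was above in every EB Tbx5+ CP but at 585, 585 and 0.631 RPM in EHF Nkx2-5+/Tbx5+ CPs, against 1153, 3647 and 789.5 RPM in EHF Nkx2-5+ CPs (log2 difference -2.23, or -0.72 without EHF Nkx2-5+/Tbx5+ cell 3 and EHF Nkx2-5+ cell 2, the EHF cells with the fewest genes). Rragc was below in every EB Tbx5+ CP and at 48.6, 108 and 0.0860 against 0, 0 and 0.0802 RPM at EHF (difference 2.64). Dcbld1 was below at EB and at 22.1, 0.137 and 0.0287 against 0, 0.0282 and 0 RPM at EHF (difference 0.80). The separation of Rragc and Dcbld1 at EHF rests on values worth 1 to 3 reads in the lowest cells. Groups of 3 cells are too small for a check of single outlying cells.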

How the results depend on the processing

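Counts past 4-fold depended on the amount added. With 1 RPM added they were 778 higher and 1045 lower in EB Tbx5+ CPs, with 100 RPM 8 and 2, with means of log2 values 137 and 281, and with a minimum of 50 RPM 155 and 190. Leaving out 1 cell gave 430 to 603 higher and 616 to 966 lower. Genes above in every EB Tbx5+ CP numbered 317 with no minimum and 71 with a minimum of 50 RPM, and 270 to 477 without 1 cell; genes below numbered 501, 120 and 371 to 659.

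The NOTCH median was -0.51 with 100 RPM added, -0.18 with medians over cells, -0.0062 with no minimum and -2.83 with a minimum of 50 RPM, and -1.99 to -0.61 without 1 cell. Without 1 cell the median ran from -0.46 to 1.52 for cardiac transcription factors, from -3.64 to -0.15 for nascent mesoderm, from -0.33 to 2.11 for allantois and extraembryonic mesoderm, and from -1.19 to 0.92 for BMP and TGF-beta genes. The canonical WNT median was -0.42 with 100 RPM added, -0.34 with medians over cells and -0.36 with no minimum. Medians over cells turned Acvr1 to 0.0156, Id2 to 0.0135 and Sfrp2 to 0.0039. Without their highest EB Nkx2-5+ cell 5 genes past 4-fold changed sign. Their differences without 1 cell ran from -3.22 to 0.57 for Acvr1, -3.40 to 0.47 for Dll3, -2.78 to 0.13 for Id2, -3.30 to 0.0015 for Nog and -2.94 to 0.0388 for Sfrp2. Of 1365 single-gene values under alternatives, 1152 moved by less than the spread between cells, 205 by more and 8 changed the sign of a gene past 4-fold. The EHF difference of Hes1 turned from -5.22 to 0.79 without the 2 EHF cells with the fewest genes. The causes were not tested.

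No paired analysis was possible because no test was made, and the cell numbers of the groups name no shared embryo. With 3 cells a group and 1 sample a group, neither embryo, pick nor amplification can be told apart from the label. A value of 0 limits a gene only to 3 reads in that amplified cDNA, and detection in EB Tbx5+ cell 2 was the lowest of the 6.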

Other observations

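Some gene groups not described above had separated members. Below in every cell (5.7% of all genes) lay 2 of 12 mesenchyme, 2 of 9 cholesterol synthesis and 2 of 7 shelterin and telomere genes. So did 3 of 33 endoplasmic reticulum chaperone and secretion genes. Above in every cell (3.14% of all genes) lay 1 of those 33 and 2 of 28 histone and DNA modifiers. The mesenchyme, cholesterol and shelterin lists had none above. Of 14 imprinted genes, 1 lay above in every cell (3.14% of all genes) and none below (5.7%). A higher mean in EB Tbx5+ CPs was found for 10 of the 14 (45.5% of all genes), with a median difference of 0.41. Mest, the most variable of them, was at 2383, 25.8 and 907 RPM in EB Tbx5+ and 7.35, 703.7 and 21.4 RPM in EB Nkx2-5+ CPs. Of 14 extracellular matrix genes, 11 had a higher mean in EB Tbx5+ CPs (45.5% of all genes; median 0.43), and none separated the cells. Medians were -0.19 for 28 histone and DNA modifiers, 0.21 for 13 BAF chromatin remodelling genes, 0.09 for 33 endoplasmic reticulum chaperones and secretion genes, -0.07 for 12 mesenchyme genes and -0.90 for 10 immediate early and stress genes. The last list summed to 3.46 RPM in EB Tbx5+ cell 2 and to 169 to 1167 RPM in the other EB cells. Second heart field, sarcomere, hedgehog, retinoic acid and Hox genes had 2 to 7 members above the minimum each. Among them Aldh1a2, the enzyme that makes retinoic acid, was at 0, 400.3 and 64.2 RPM in EB Tbx5+ and 0.18, 49.2 and 0 RPM in EB Nkx2-5+ CPs. Zfp42 (Rex1), a pluripotency marker, was at 419 RPM in EB Tbx5+ cell 2 and 13.0 RPM in cell 3, and at 0 in the other 4 EB cells.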
